A study of Mus musculus with 10 samples.

Results

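Genes of sterol and fatty acid synthesis were examined in sorted CD4+ T cells of the mouse spleen. The 32 genes were listed by name, as enzymes of the mevalonate, cholesterol and fatty acid pathways and as their SREBP and LXR control and transport genes, with no threshold on a measured value. All 32 symbols were found among the 48321 symbols of every count file, and 31 passed the filter on low counts that left 13796 genes for testing. The exception was *Scd1*, with 0 to 6 reads per library. The 10 RNA-seq libraries came from untreated C57BL/6 mice, and cells were sorted for CD25 and for GFP made from a *Foxp3* reporter allele, read here as FoxP3. WT animals and animals of the genotype *Satb1* F/F; ThPOK-cre (KO) each gave FoxP3+CD25+ cells, the regulatory T cells (Tregs), and FoxP3-CD25- cells, the non-Treg cells. KO mice also gave FoxP3+CD25- cells, with 2 libraries in each of the 5 groups. In the KO mice Cre is driven by *Thpok*, a gene switched on as thymocytes commit to the CD4 lineage, so *Satb1* is lost from conventional CD4+ T cells and from Tregs alike. Per the study's methods, the mice were adults of both sexes. The labels do not give the age or sex of each mouse, nor whether WT mice carried Cre or floxed alleles. A library number within a genotype was read as 1 mouse (2 WT and 2 KO mice). The labels imply this without stating it.

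Cells make cholesterol from acetyl-CoA through mevalonate and squalene, and make fatty acids from the same precursor through malonyl-CoA. When sterols are low in the endoplasmic reticulum, SCAP carries the SREBP precursors encoded by *Srebf1* and *Srebf2* to the Golgi for cleavage, and the cleaved factors bind sterol regulatory elements in the promoters of these enzymes. INSIG proteins hold SCAP back when sterols are plentiful, whereas LXR receptors respond to oxysterols and turn on the exporters ABCA1 and ABCG1. T cells raise lipid synthesis on activation, and Tregs are known to need a mevalonate supply.

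The promoter stretches of the first enzyme of the list and of a late one are shown because *Hmgcs1* and *Sc5d* return in the comparisons below. RefSeq promoter windows on GRCm38.p6, from 250 bases before to 50 bases after a start, were matched for 25 of the 32 genes. On both strands, the sterol regulatory element TCACNCCAC occurred in the windows of 1 of these 25 genes (4%), *Hmgcs1*, against 1.44% of the 27025 genes with a window. The CCAAT box occurred in 20 of the 25 (80%), against 41.1% of all genes. The 250 bases upstream of the start are given 5′ to 3′ with these motifs in capitals, ATTGG being CCAAT on the other strand. The first is chr13:119690101-119690350 on the plus strand and the second chr9:42264301-42264550 on the minus strand. A match of letters is a description and not a binding site.
Hmgcs1: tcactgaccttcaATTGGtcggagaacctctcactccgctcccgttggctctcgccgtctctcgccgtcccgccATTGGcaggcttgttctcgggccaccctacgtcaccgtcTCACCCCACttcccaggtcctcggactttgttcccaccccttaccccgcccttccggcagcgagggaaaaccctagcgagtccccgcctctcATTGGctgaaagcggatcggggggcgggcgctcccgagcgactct
Sc5d: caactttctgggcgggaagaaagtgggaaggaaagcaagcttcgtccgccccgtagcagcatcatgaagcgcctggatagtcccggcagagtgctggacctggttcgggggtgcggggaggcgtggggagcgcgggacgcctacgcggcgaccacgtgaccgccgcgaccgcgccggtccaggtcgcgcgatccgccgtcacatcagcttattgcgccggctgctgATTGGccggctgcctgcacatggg
The *Hmgcs1* stretch held the sterol element 137 bases before the start and 3 CCAAT boxes, whereas the *Sc5d* stretch held 1 CCAAT box, 24 bases before the start.

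The libraries held 6094952 to 12410064 reads counted on genes, and a count of 3, taken as the floor, was worth 0.248 to 0.496 CPM (counts scaled to library size with TMM factors). Floors cover counting error only. *Foxp3* had 618 to 739 CPM in the FoxP3+CD25+ libraries, 318 and 361 CPM in the KO FoxP3+CD25- libraries and 18.0 to 38.9 CPM in the FoxP3-CD25- libraries. *Il2ra*, which encodes CD25, had 627 to 760 CPM in the FoxP3+CD25+ libraries and at most 16.8 CPM elsewhere. *Satb1* itself had 379 and 478 CPM in the WT and 598 and 534 CPM in the KO FoxP3+CD25+ libraries, 818 and 881 CPM in the WT and 841 and 682 CPM in the KO FoxP3-CD25- libraries, and 1186 and 993 CPM in the KO FoxP3+CD25- libraries. Its levels in the libraries labelled KO were thus above those of WT in FoxP3+CD25+ cells and overlapped them in FoxP3-CD25- cells, and neither difference was called by edgeR. In KO FoxP3+CD25- cells, where *Satb1* was highest, edgeR called it higher than in WT FoxP3+CD25+ cells. The counts sum reads over all exons and do not check the deletion, so KO below means the label. Both libraries of WT replicate 1 held *Xist* reads (14487 and 16362) and no reads of the chromosome Y genes *Ddx3y*, *Eif2s3y*, *Kdm5d* and *Uty*, and the other 8 libraries the reverse, with at most 4 *Xist* reads.

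Per kilobase of exon, the levels of the 32 genes spanned a wide range (plot of levels by library). *Acly*, which makes cytosolic acetyl-CoA from citrate, had the highest level with a median of 59.7 RPKM (CPM per kilobase of exon) over the 10 libraries (51.2 to 70.3). *Srebf2*, whose product favours sterol genes, followed with 54.5 RPKM (50.7 to 62.6), so these neighbours overlapped across libraries. *Nr1h2*, encoding LXR beta, had 33.0 RPKM, and *Fasn*, fatty acid synthase, 25.9 RPKM (22.3 to 28.5). *Scd2*, a stearoyl-CoA desaturase that puts the double bond into oleate, had 25.4 RPKM (17.3 to 33.1), within the range of *Fasn*. *Srebf1*, *Abcg1*, *Scap*, *Ebp*, *Insig1* and *Hmgcs1* had medians from 21.7 down to 12.7 RPKM. The other desaturase, *Scd1*, had a median of 0.0376 RPKM and at most 0.768 CPM. Of the stretches of 50 bases of *Scd1* and *Scd2*, 4.56% and 3.97% are also in other genes, mainly in each other. Most reads of this length could thus be told apart between them. At the low end, *Acaca*, the acetyl-CoA carboxylase that makes malonyl-CoA, had 1.48 RPKM, *Idi1* 1.21 RPKM and *Fdps*, farnesyl diphosphate synthase, 0.380 RPKM.

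**Figure D1:**
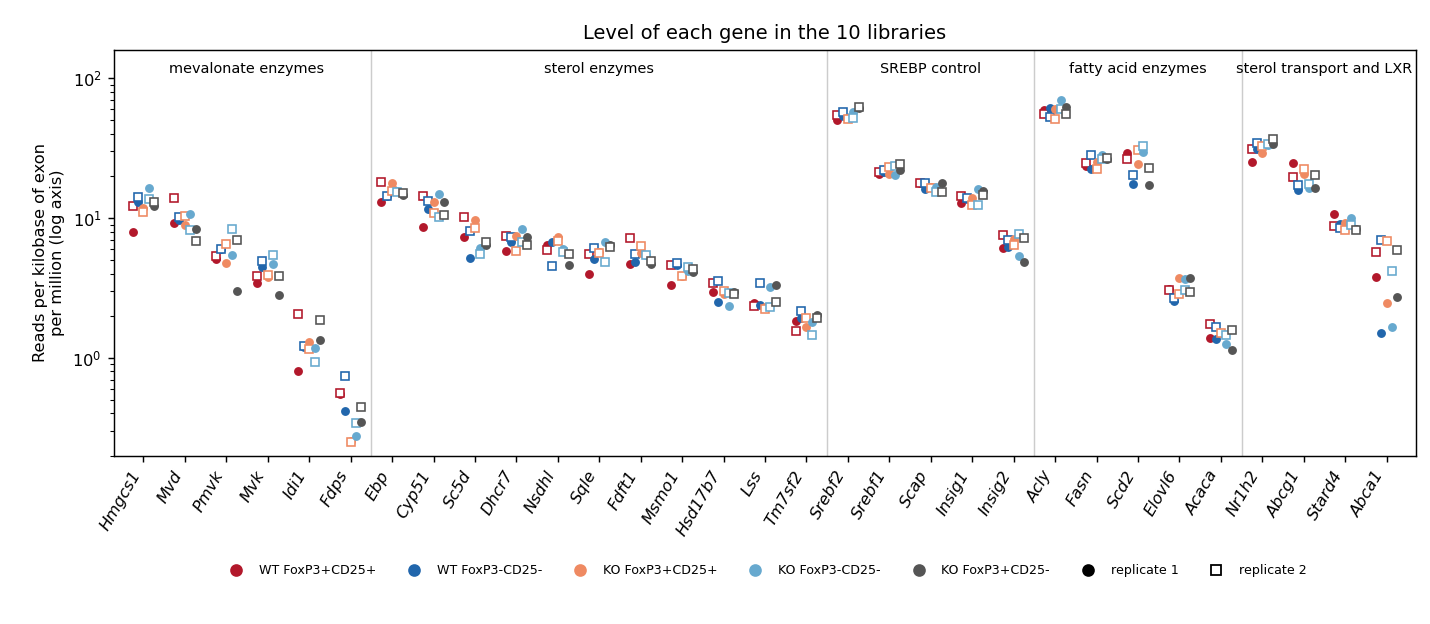
Levels of the 31 genes past the filter on low counts in each of the 10 libraries, in RPKM on a log axis, ordered by role and, within a role, by median level. Filled circles are replicate 1, open squares replicate 2, and colours the 5 sorted groups. The libraries of most genes lie close together, those of *Scap* within a ratio of 1.174, and those of *Abca1* farthest apart, with a ratio of 4.664.

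Several low values have limits from the counting of shared sequence. Of the stretches of 50 bases of a gene's transcripts, 30.4% in *Acaca* are also in other genes (mainly *Gm5182*), 26.2% in *Fdps* (mainly the overlapping *Gm43738*), 26.5% in *Fdft1* (mainly *Ctsb*, which overlaps it on the other strand) and 25.3% in *Idi1* (mainly *Gm13502*). The corresponding share was 11.6% in *Hmgcs1*, 9.96% in *Scap* and 9.87% in *Tm7sf2*, each mainly with an overlapping gene. The strand setting of the counting is not given in the sources used here, so reads of *Hmgcs1*, *Scap*, *Idi1* or *Fdft1* and of their partners on the other strand may not be separable. Values of these 7 genes are uncertain to that extent.

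The levels moved little across the 5 groups. The ratio of the highest to the lowest library had a median of 1.529 over the 31 genes, and was under 2 for 25 of them. Of the 5 SREBP control genes, 4 had a ratio between 1.174 (*Scap*) and 1.31 (*Insig1*), and *Insig2* had 1.60. *Srebf1* had 118 and 121 CPM in WT FoxP3+CD25+ cells, 120 and 124 CPM in WT FoxP3-CD25- cells, 117 and 130 CPM in KO FoxP3+CD25+ cells, 115 and 132 CPM in KO FoxP3-CD25- cells, and 124 and 137 CPM in KO FoxP3+CD25- cells. In the same order, *Scap* had 133 and 133, 119 and 132, 125 and 123, 125 and 114, and 132 and 114 CPM. *Insig1* had 39.9 and 44.4, 42.1 and 43.3, 43.0 and 38.1, 50.1 and 38.6, and 48.3 and 45.4 CPM. These 3 genes had close values in all groups, and edgeR called none of them without a block in any comparison, or with the block for the mouse in the 5 comparisons within a genotype or between the contrasts.

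The fatty acid enzymes other than *Scd2* were similarly level. In the order of groups above, *Fasn* had 257 and 272, 244 and 308, 277 and 246, 312 and 291, and 290 and 296 CPM. *Acaca* had 23.8 and 29.6, 23.4 and 28.4, 25.6 and 25.7, 21.3 and 24.9, and 19.4 and 26.8 CPM. *Acly* had 312 and 293, 322 and 279, 319 and 270, 371 and 319, and 332 and 294 CPM, so replicate 1 lay above replicate 2 in every group. *Sqle*, squalene epoxidase and a slow step of sterol synthesis, had 22.1 and 30.7, 28.2 and 33.6, 31.7 and 31.2, 37.7 and 26.7, and 35.4 and 34.7 CPM. Its KO FoxP3+CD25- libraries lay above those of every other group except KO FoxP3-CD25-. The KO FoxP3+CD25+ libraries lay above the WT FoxP3+CD25+ libraries, and edgeR called *Sqle* in none of the comparisons.

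The remaining genes are given by their range over the 10 libraries. Of the mevalonate enzymes, the kinase *Pmvk* had 5.17 to 14.4 CPM and the isomerase *Idi1* 2.82 to 7.21 CPM. *Fdft1*, which makes squalene, had 19.7 to 30.5 CPM, and *Lss*, which closes the sterol rings, 24.2 to 36.9 CPM. The demethylase *Cyp51* had 38.1 to 66.0 CPM and the reductase *Dhcr7*, the last step to cholesterol, 33.9 to 48.8 CPM. *Ebp* (30.1 to 42.1 CPM), *Msmo1* (20.5 to 29.1 CPM), *Hsd17b7* (12.1 to 18.2 CPM) and *Tm7sf2* (6.46 to 9.49 CPM) act on the sterol rings between them. *Insig2*, the partner of *Insig1*, had 16.8 to 26.9 CPM, and *Stard4*, a carrier of cholesterol between membranes, 45.7 to 59.6 CPM. None of these genes was called without a block in the 9 comparisons, or with the block for the mouse in the 5 that allow it.

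The first comparison, of FoxP3+CD25+ with FoxP3-CD25- cells of WT mice, asks how Tregs differ from other CD4+ T cells when *Satb1* is intact. Of the 31 genes, 1 passed edgeR's quasi-likelihood test at FDR 0.05 (Benjamini-Hochberg adjusted over all genes tested), *Scd2*, which was higher in FoxP3+CD25+ cells. That is 3.23% of the genes, against 10.9% of all genes tested. *Scd2* had 159 and 145 CPM in the FoxP3+CD25+ libraries and 95.6 and 111 CPM in the FoxP3-CD25- libraries, so the groups did not overlap. The means were 152 ± 10.2 and 103 ± 10.8 CPM (SD, n = 2). On the log2 scale the difference was 0.56 (SE 0.16, edgeR FDR = 0.0449). A block for the mouse, which compares cells within each animal, gave an FDR of 0.00229, and FoxP3+CD25+ cells had 1.67 and 1.31 times the level of the FoxP3-CD25- cells of the same mouse.

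The call of *Scd2* rested on few libraries. It was lost without WT FoxP3+CD25+ replicate 1 (log2 fold change 0.50, FDR = 0.186), without WT FoxP3-CD25- replicate 1 (0.44, FDR = 0.272) or replicate 2 (0.67, FDR = 0.0954), without KO FoxP3-CD25- replicate 1 (0.55, FDR = 0.0596) or replicate 2 (0.56, FDR = 0.0594), and without both libraries of WT replicate 1 (0.39, FDR = 0.476), all by edgeR. The direction was the same in each.

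Under the block, 4 of the 31 genes were called (12.9%), against 19.1% of all genes. Beside *Scd2* these were *Abcg1* and *Sc5d*, which were higher, and *Hmgcs1*, which was lower. *Abcg1*, the LXR-driven exporter of sterols to lipoproteins, had 182 and 144 CPM in the FoxP3+CD25+ and 115 and 125 CPM in the FoxP3-CD25- libraries. Its log2 fold change was 0.44 (SE 0.14, edgeR FDR = 0.0745 without the block and 0.0171 with it), and the ratios within a mouse were 1.58 and 1.15. *Sc5d*, which puts in one of the last double bonds of cholesterol, had 36.0 and 49.4 CPM against 25.2 and 39.2 CPM. The groups overlapped, but within a mouse the ratios were 1.43 and 1.26 (log2 fold change 0.42, edgeR FDR = 0.0246 with the block). Without the block *Sc5d* was not called and was not among the 3 genes at an unadjusted p under 0.05. *Hmgcs1*, the synthase that opens the mevalonate pathway and carries the sterol element shown above, had 36.9 and 56.1 CPM against 60.4 and 65.5 CPM. Its log2 fold change was −0.43 (SE 0.18, edgeR FDR = 0.172 without the block), and −0.46 (FDR = 0.0288) with it. Without WT FoxP3+CD25+ replicate 2 and without a block, 3 genes were called, *Scd2*, *Abcg1* (0.62, FDR = 0.0149) and *Hmgcs1* (−0.75, FDR = 0.00892), and 15.2% of all genes were called in that fit.

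As a whole the 31 genes were centred near 0 in this comparison. The log2 fold changes were above 0 for 16 genes and below 0 for 15, with a median of 0.0084 against −0.0213 for all genes tested. By role, the signs were above 0 for 2 of 6 mevalonate enzymes, 5 of 11 sterol enzymes, 2 of 5 SREBP control genes, 4 of 5 fatty acid enzymes and 3 of 4 transport and LXR genes. At an unadjusted p under 0.05 there were 3 genes of the 31, beside 3024 of the 13796 tested. For 29 of the 31 the 95% confidence interval lay within a 2-fold change in either direction, as it did for 65.2% of all genes. Marker levels of other cells moved with this comparison. Of 5 B cell markers, 2 were called higher in FoxP3+CD25+ cells, *Cd79b* (19.1 and 14.6 against 1.41 and 0.826 CPM) and *Ighm* (578 and 396 against 326 and 302 CPM). *Ms4a1*, another marker of B cells, had 0 to 0.166 CPM in these 4 libraries. The summed B cell list had 414 to 598 CPM in FoxP3+CD25+ and 304 to 329 CPM in FoxP3-CD25- libraries, and its part in the result was not tested. The 4 adipocyte markers, relevant to desaturases, summed to 0.118 to 1.62 CPM over all libraries. In bulk libraries a smaller share of cells of a type and less RNA per cell cannot be told apart. Among the 6 markers of cycling cells, 3 had log2 fold changes above 0 without the block. Only *Mki67* was called, higher and with the block, with 46.8 and 14.8 against 25.5 and 12.7 CPM. The summed list had 33.9 to 87.1 CPM in FoxP3+CD25+ and 33.6 to 49.4 CPM in FoxP3-CD25- libraries, and its part was not tested.

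**Figure D2:**
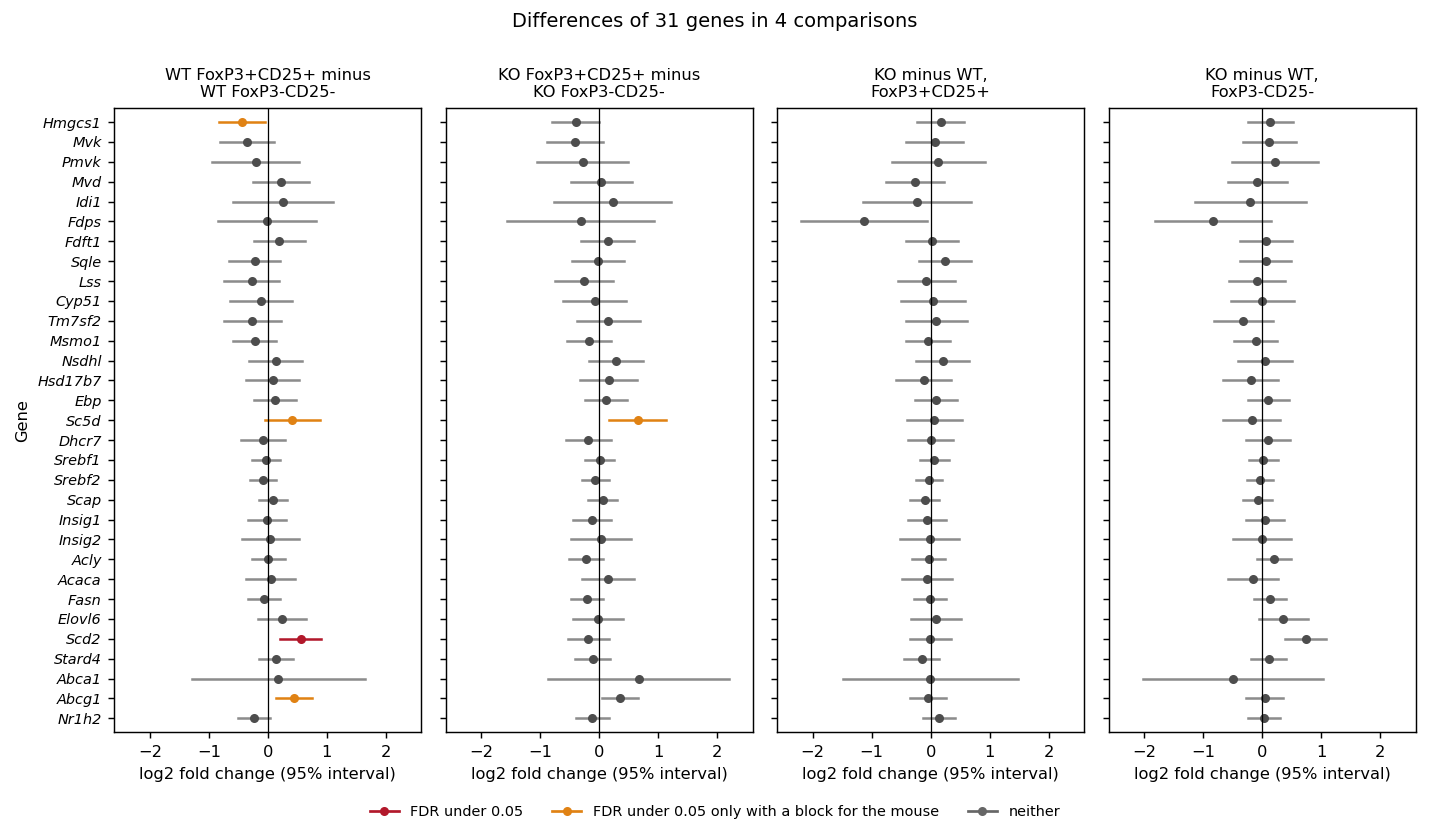
Log2 fold changes of the 31 genes with 95% confidence intervals in 4 comparisons, by edgeR's quasi-likelihood fit without a block. Red marks FDR under 0.05, orange FDR under 0.05 only with a block for the mouse, and grey neither. *Scd2* in WT cells is the only red point, and the intervals of *Abca1*, *Fdps*, *Idi1* and *Pmvk* are the widest.

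The same contrast in KO mice compared FoxP3+CD25+ with FoxP3-CD25- cells that lack *Satb1* by their label. None of the 31 genes was called by edgeR, against 6.34% of all genes. At an unadjusted p under 0.05 there were 3 genes, beside 2205 of all genes, and DESeq2 called 0, against 6.36% of all genes. The block for the mouse gave 1 called gene (3.23%, against 12% of all genes), *Sc5d*, which was higher in FoxP3+CD25+ cells. It had 47.5 and 41.5 CPM against 29.6 and 27.1 CPM, so all FoxP3+CD25+ libraries lay above. Its log2 fold change was 0.65 (SE 0.22, edgeR FDR = 0.131 without the block and 0.00434 with it), and the ratios within a mouse were 1.60 and 1.53. Without a block, it was also called when both libraries of WT replicate 1 were left out (0.65, edgeR FDR = 0.0196).

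*Abcg1* and *Hmgcs1* had the next lowest p-values. *Abcg1* had 151 and 165 CPM against 120 and 128 CPM in KO cells (log2 fold change 0.35, SE 0.14, edgeR FDR = 0.220). *Hmgcs1* had 54.5 and 50.4 CPM against 75.8 and 63.1 CPM (−0.40, SE 0.18, edgeR FDR = 0.298). Neither pair of groups overlapped, and neither difference passed the test. The largest positive log2 fold change, 0.67, was that of *Abca1*, which has the widest spread between replicates. The median over the 31 genes was −0.0278, against −0.0012 for all genes, with 14 signs above 0 and 17 below. For 26 genes the 95% interval lay within a 2-fold change. The B cell markers *Cd79b* and *Ighm* were called higher here as well with the block, and that list summed to 370 to 428 CPM in FoxP3+CD25+ and 222 to 270 CPM in FoxP3-CD25- libraries. Markers of other cells were also called lower with the block. *Mki67* and *Top2a* mark cycling cells, a list whose sum reached at most 92.0 CPM in FoxP3+CD25+ libraries and 78.9 to 154 CPM in FoxP3-CD25- libraries. *Itgam*, of myeloid cells, had 1.98 and 1.44 against 6.29 and 5.27 CPM, while the whole myeloid list summed to 55.0 to 68.8 against 53.1 to 58.1 CPM. *Klrb1c*, of NK cells, had 0.763 and 0.786 against 1.98 and 3.95 CPM. The part of these cells was not tested.

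The contrast of *Scd2* had the opposite sign to that in WT mice. In KO mice it had 133 and 168 CPM in FoxP3+CD25+ and 163 and 181 CPM in FoxP3-CD25- libraries, overlapping groups with means of 151 ± 25.0 and 172 ± 12.8 CPM (SD, n = 2). The log2 fold change was −0.19 (SE 0.16, edgeR FDR = 0.682 without the block and 0.295 with it), and within a mouse the ratios were 0.819 and 0.933. The difference between the KO and WT contrasts was tested directly. Without a block no gene of the list was called by edgeR and 0% of all genes were. DESeq2 called 0 of the 31, against 0.181% of all genes. By edgeR, 1 of the 31 and 685 of all genes had an unadjusted p under 0.05. *Scd2* had the lowest p-value of the list there (−0.74, SE 0.22, 95% interval −1.24 to −0.25, edgeR FDR = 0.717). It was called with the block for the mouse (−0.75, SE 0.14, FDR = 0.0351), 1 of 31 genes (3.23%), against 1.07% of all genes. Of the 6 markers of cycling cells, *Mki67* was called lower in the same blocked difference, with 46.8 and 14.8 CPM in WT FoxP3+CD25+, 25.5 and 12.7 CPM in WT FoxP3-CD25-, 45.5 and 15.2 CPM in KO FoxP3+CD25+ and 85.8 and 43.9 CPM in KO FoxP3-CD25- libraries. Its part in the difference of *Scd2* was not tested. *Satb1* itself was called higher and *Ikzf2*, a Treg marker, lower in the same blocked difference. Without the block, *Stard4* (−0.26, SE 0.19) and *Acly* (−0.24, SE 0.18), next after *Scd2* in order of p-value, had an edgeR FDR of 0.9999. The median over the list was −0.0150, against 0.0057 for all genes.

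**Figure D3:**
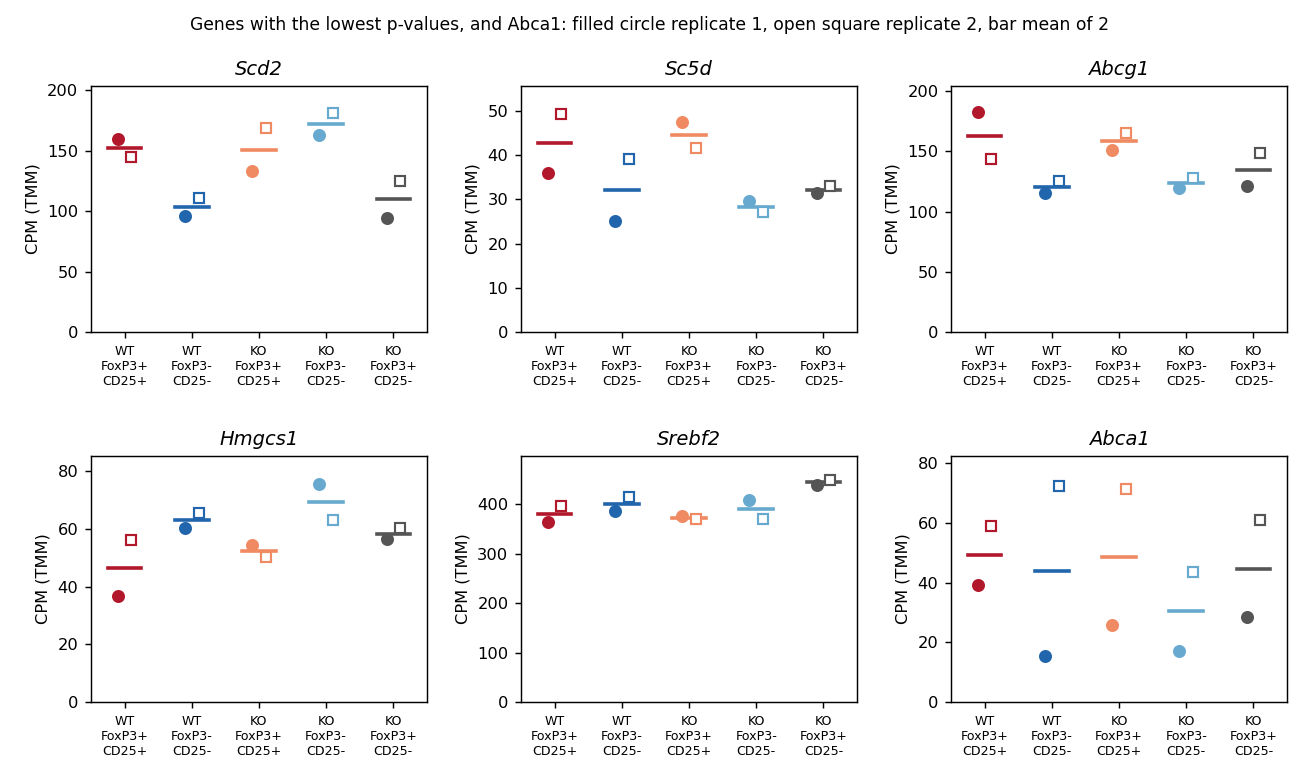
Levels of 6 genes in each library, in CPM scaled by TMM factors, by sorted group. Filled circles are replicate 1, open squares replicate 2, and bars the mean of 2 libraries. *Scd2* is higher in WT FoxP3+CD25+ than in WT FoxP3-CD25- libraries and not in KO, and every replicate 2 library of *Abca1* lies above every replicate 1 library.

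KO and WT cells of the same sorted population were then compared, which asks what the labelled loss of *Satb1* changes. In FoxP3+CD25+ cells none of the 31 genes was called by edgeR, against 0.00725% of all genes. DESeq2 called 0, against 0.0362% of all genes. At an unadjusted p under 0.05 there was 1 gene of the list, beside 592 of all genes. That gene of the list was *Fdps*, with 2.30 and 2.36 CPM in WT and 1.07 and 1.05 CPM in KO libraries, which is 18 and 20 reads against 7 and 8. Its log2 fold change was −1.13 (SE 0.48, 95% interval −2.20 to −0.06, edgeR FDR = 0.9999). *Sqle* (0.25, SE 0.20) and *Mvd*, the decarboxylase of the mevalonate pathway (−0.27, SE 0.22), had the next lowest p-values, also with FDR = 0.9999. *Mvd* had 17.1 and 25.9 CPM in WT and 16.5 and 19.3 CPM in KO libraries. For 28 of the 31 genes the 95% interval lay within a 2-fold change, against 71.7% of all genes, and the median was −0.0098, against −0.0031 for all genes. *Scd2*, at 159 and 145 CPM in WT and 133 and 168 CPM in KO libraries, had a log2 fold change of −0.01 (95% interval −0.36 to 0.34).

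In FoxP3-CD25- cells none of the 31 genes was called by edgeR, against 0.145% of all genes. At an unadjusted p under 0.05 there was 1 gene of the list, beside 1106 of all genes. It was *Scd2*, which DESeq2 called with 0.805% of all genes. *Scd2* had 95.6 and 111 CPM in WT and 163 and 181 CPM in KO libraries, so the groups did not overlap and both KO libraries lay above both WT libraries. The log2 fold change was 0.73 (SE 0.16, lower end of the 95% interval 0.39, edgeR FDR = 0.145, DESeq2 FDR = 0.00483), and the p-value ranked 71 among the 13796 genes. edgeR called *Scd2* here without the filter on low counts (FDR = 0.0351) and in a fit of only these 4 libraries (FDR = 0.0340). The WT libraries of this comparison are those of the Treg contrast above, so the lower level of *Scd2* in WT FoxP3-CD25- cells enters both values. *Elovl6*, an elongase of saturated fatty acids, had 16.3 and 17.3 against 23.7 and 19.6 CPM (0.36, SE 0.19, edgeR FDR = 0.706), and *Fdps* 1.74 and 3.10 against 1.16 and 1.45 CPM (−0.83, SE 0.45, edgeR FDR = 0.706).

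Across the list this comparison had a median of 0.0265, against −0.0027 for all genes, with 18 signs above 0 and 13 below, and 27 of 31 intervals within a 2-fold change. Markers of cycling cells moved with it. All 6 had log2 fold changes above 0 with none called, and their sum was 78.9 to 154 CPM in KO and 33.6 to 49.4 CPM in WT FoxP3-CD25- libraries. *Mki67* had 85.8 and 43.9 CPM in KO and 25.5 and 12.7 CPM in WT. Their part in the level of *Scd2* was not tested. The WT libraries of both KO against WT comparisons come from 1 mouse with *Xist* reads and 1 without, and both KO mice were without them beyond 4 reads. Without both libraries of the former mouse the log2 fold change of *Scd2* was 0.64 (edgeR FDR = 0.349).

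The FoxP3+CD25- cells of KO mice express *Foxp3* without CD25. Against KO FoxP3-CD25- cells none of the 31 genes was called by edgeR, against 1.67% of all genes. At an unadjusted p under 0.05 there were 2 genes, beside 1379 of all genes, and DESeq2 called 1, *Scd2*, and 2.65% of all genes. Given the block, edgeR called *Scd2* as well, 1 of 31 genes (3.23%, against 5.7% of all genes). *Scd2* had 94.6 and 125 CPM in FoxP3+CD25- and 163 and 181 CPM in FoxP3-CD25- libraries, without overlap, and within a mouse the ratios were 0.582 and 0.692. The log2 fold change was −0.64 (SE 0.16, edgeR FDR = 0.0828 without the block, and −0.65 with FDR = 0.00360 with it). *Mvk*, mevalonate kinase, had 7.60 and 10.3 against 12.6 and 14.6 CPM (−0.59, SE 0.22, edgeR FDR = 0.322). *Srebf2* was next with a log2 fold change of 0.19 (SE 0.10, edgeR FDR = 0.644). The median over the list was −0.0199, against 0.0060 for all genes, and 26 intervals lay within a 2-fold change. Of the markers of cycling cells, whose sum was 18.3 to 33.1 CPM in FoxP3+CD25- libraries, *Mki67* and *Top2a* were called lower with the block, as was *Klrb1c* of NK cells (0 and 0.547 against 1.98 and 3.95 CPM), and their part was not tested.

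Against KO FoxP3+CD25+ cells, again none of the 31 genes was called by edgeR, against 7.01% of all genes. There were 3 at an unadjusted p under 0.05, beside 2610 of all genes, and DESeq2 called 0, against 7.34% of all genes. The block gave 3 called genes (9.68%, against 15.1% of all genes). *Scd2* was lower in FoxP3+CD25- cells, with 94.6 and 125 against 133 and 168 CPM and ratios within a mouse of 0.710 and 0.742 (−0.46, edgeR FDR = 0.134 without the block and 0.0115 with it). *Sc5d* was lower, with 31.4 and 33.0 against 47.5 and 41.5 CPM and ratios of 0.661 and 0.796 (−0.46, FDR = 0.0242 with the block). Without the block it was not among the 3 genes at an unadjusted p under 0.05. *Srebf2*, the regulator of sterol genes, was higher, with 440 and 449 against 376 and 370 CPM and ratios of 1.17 and 1.22 (0.25, SE 0.10, edgeR FDR = 0.194 without the block and 0.0438 with it).

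The 2 KO FoxP3+CD25- libraries had the highest *Srebf2* levels of all 10 libraries. The others were 364 and 396 CPM in WT FoxP3+CD25+, 388 and 415 CPM in WT FoxP3-CD25- and 410 and 372 CPM in KO FoxP3-CD25- libraries. *Nsdhl*, an X-linked sterol dehydrogenase, had 13.3 and 15.9 CPM in KO FoxP3+CD25- and 21.1 and 19.5 CPM in KO FoxP3+CD25+ libraries (−0.47, SE 0.21, edgeR FDR = 0.261). The median over the list was −0.0106, against 0.0037 for all genes, and 28 intervals lay within a 2-fold change. With the block, *Cd79b*, *Ighm*, *Mki67* and *Top2a* were called lower in FoxP3+CD25- cells, where the B cell list summed to 254 to 299 CPM, and the part of these cells was not tested.

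The KO FoxP3+CD25- cells were also set against both WT populations. Against WT FoxP3-CD25- cells no gene of the list was called by edgeR, against 0.768% of all genes. DESeq2 called 0, against 1.57% of all genes. There was 1 gene of the list at an unadjusted p under 0.05, beside 1214 of all genes. That gene of the list was *Mvk*, with 7.60 and 10.3 against 11.9 and 13.2 CPM (−0.47, SE 0.21, edgeR FDR = 0.565). *Elovl6* (0.34, SE 0.19, 23.9 and 18.9 against 16.3 and 17.3 CPM) and *Mvd* (−0.40, SE 0.23, 15.5 and 12.8 against 18.0 and 19.1 CPM) followed. *Scd2* had overlapping levels, 94.6 and 125 against 95.6 and 111 CPM, and a log2 fold change of 0.09 (95% interval −0.26 to 0.44). The median over the list was −0.0296, against −0.0067 for all genes, and 28 intervals lay within a 2-fold change.

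Against WT FoxP3+CD25+ cells no gene of the list was called by edgeR, against 11.2% of all genes. There were 4 at an unadjusted p under 0.05, beside 3257 of all genes, and DESeq2 called 0, against 10.6% of all genes. *Scd2* had the lowest p-value, with 94.6 and 125 against 159 and 145 CPM (−0.47, SE 0.16, edgeR FDR = 0.0934). *Mvd* had 15.5 and 12.8 against 17.1 and 25.9 CPM (−0.62, SE 0.23, edgeR FDR = 0.123), and *Nr1h2* 113 and 123 against 84.6 and 104 CPM (0.32, SE 0.12, edgeR FDR = 0.139). In each the groups did not overlap. Without WT FoxP3+CD25+ replicate 1, *Mvd* was called (−0.89, FDR = 0.0334), without replicate 2 there were 2 calls, *Nr1h2* (0.48, FDR = 0.0364) and *Hmgcs1*, and without both libraries of WT replicate 1 there was 1, *Sc5d*. The median over the list was −6e-04, against 0.0152 for all genes, and 27 intervals lay within a 2-fold change.

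*Abca1*, which exports cholesterol from cells, differed between the replicate numbers in every sorted group. It had 39.3 and 58.9 CPM in WT FoxP3+CD25+, 15.5 and 72.2 CPM in WT FoxP3-CD25-, 25.8 and 71.3 CPM in KO FoxP3+CD25+, 17.2 and 43.5 CPM in KO FoxP3-CD25-, and 28.4 and 60.9 CPM in KO FoxP3+CD25- libraries. Every replicate 2 library lay above every replicate 1 library, in both genotypes. The mean of the replicate 2 libraries was 2.431 times the mean of the replicate 1 libraries. Within a mouse the ratio of FoxP3+CD25+ to FoxP3-CD25- cells was 2.54 and 0.816 in WT and 1.499 and 1.64 in KO, and that of FoxP3+CD25- to FoxP3-CD25- cells 1.65 and 1.402. With the block for the mouse the KO log2 fold changes were 0.66 (95% interval 0.01 to 1.31, edgeR FDR = 0.203) and 0.58 (edgeR FDR = 0.372), and neither was called. *Abca1* alone of the 31 genes had this order. Of all genes tested 206 had it (1.49%), and 5 of them, *Abca1* included, had a ratio at least as large as that of *Abca1*. The replicate 2 library was the higher of the pair in all 5 groups for 7 of the 31 genes and the lower for 2 (*Acly* and *Stard4*). Of the 13796 genes tested, it was the higher for 1167 (8.46%) and the lower for 1379. The labels do not say what a number has in common between a WT and a KO mouse, and sex does not follow it, since replicate 1 held *Xist* reads in WT and not in KO.

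Outside the 32 genes, 36 other genes of the pathway were listed (synthesis, activation, elongation and desaturation of fatty acids, sterol esterification and transport, and further SREBP and LXR genes), of which 30 passed the filter. In WT FoxP3+CD25+ against FoxP3-CD25- cells 4 were called lower and 0 higher, with a median of −0.18, whereas 517 of the 13796 genes were called lower and 987 higher. Under the block 7 were lower and 1 higher, beside 2634 of all genes (19.1%) in either direction. *Acss2*, which makes acetyl-CoA from acetate, had 38.1 and 55.6 against 69.7 and 93.9 CPM (−0.80, SE 0.20, edgeR FDR = 0.0231). *Npc2*, which carries cholesterol out of lysosomes, had 171 and 251 against 360 and 329 CPM (−0.71, SE 0.16, edgeR FDR = 0.0172). The elongase *Elovl7* had 0 and 0.472 against 3.31 and 3.82 CPM, which is 0 and 4 against 40 and 37 reads (edgeR FDR = 0.0133), and no fold is given because 1 library is under the floor. Of 11 settings with libraries left out, 3 lost the call of *Acss2*, 4 that of *Npc2* and 3 that of *Elovl7*. Among them were those without WT FoxP3+CD25+ replicate 1 and without WT FoxP3-CD25- replicate 2. The call of *Npc2* was also lost without WT FoxP3-CD25- replicate 1. Over the 11 settings the log2 fold change ranged from −1.08 to −0.54 for *Acss2* and from −0.99 to −0.38 for *Npc2*.

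In KO FoxP3+CD25+ against FoxP3-CD25- cells 2 of the 30 were called lower and 0 higher, with a median of −0.18, beside 388 lower and 486 higher of all genes. Under the block 8 were lower and 0 higher, beside 12% of all genes in either direction. The 2 called without the block are given next. *Lbr*, which has sterol reductase activity and anchors chromatin at the nuclear lamina, had 302 and 328 against 421 and 422 CPM (−0.42, SE 0.09, edgeR FDR = 0.0230), and *Rnf145*, a sterol-regulated ubiquitin ligase, 269 and 283 against 359 and 369 CPM (−0.40, SE 0.10, edgeR FDR = 0.0322). Both calls were lost when any of these 4 libraries was left out, with an FDR of up to 0.207 and 0.228, and that of *Rnf145* also without either WT FoxP3-CD25- library (FDR = 0.0516 and 0.0515).

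In KO FoxP3+CD25- against KO FoxP3+CD25+ cells 2 were called higher and 0 lower, beside 311 higher and 656 lower of all genes. They were *Lbr* (449 and 446 CPM in FoxP3+CD25- cells, 0.51, SE 0.09, edgeR FDR = 0.00749) and *Acss2* (94.2 and 110 against 54.3 and 67.6 CPM, 0.74, SE 0.20, edgeR FDR = 0.0455). Under the block 5 were higher and 0 lower, beside 15.1% of all genes in either direction. The call of *Lbr* was lost without KO FoxP3+CD25+ replicate 1 (FDR = 0.101) or either FoxP3+CD25- library (FDR = 0.0524 and 0.0556), and that of *Acss2* without any 1 of the 6 KO libraries (FDR of up to 0.299).

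Against WT FoxP3+CD25+ cells 4 were called higher and 0 lower, beside 535 higher and 1013 lower of all genes. Of these *Acss2* had a log2 fold change of 1.12 (SE 0.20, edgeR FDR = 0.00380), *Mylip*, an LXR target, 98.1 and 123 against 58.1 and 62.3 CPM (0.88, SE 0.18, edgeR FDR = 0.00861), and *Lbr* 0.44 (SE 0.09, edgeR FDR = 0.0123). The call of *Acss2* held in all 11 settings with libraries left out. That of *Mylip* was lost in 3 of them, among them without WT FoxP3+CD25+ replicate 1 and without KO FoxP3+CD25- replicate 2. That of *Lbr* was also lost in 3, among them without either KO FoxP3+CD25- library. Over the 11 settings the log2 fold changes ranged from 0.88 to 1.42 for *Acss2*, 0.72 to 1.02 for *Mylip* and 0.41 to 0.45 for *Lbr*. In the remaining comparisons edgeR called none of the 30 without a block. With the block, 2 (*Acsl5* and *Soat2*) were called lower in KO FoxP3+CD25- than in KO FoxP3-CD25- cells, beside 5.7% of all genes in either direction.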

How the data were processed

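RNA was extracted from sorted spleen CD4+ T cells and sequenced as 50-base reads. The authors used HISAT2 (version 2.1.0) for alignment to mm10 and HTSeq (version 0.11.1 in the submitters' processing notes) for counting per gene symbol. The deposited values are raw counts, whole reads per symbol, neither normalized nor filtered, with 5 tallies of unassigned reads per file left out here. Counted reads were 26.0% to 28.5% of all reads, and reads aligned to several places 24.9% to 31.7%.

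All 10 libraries entered 1 edgeR model (version 4.0.16, R version 4.3.3) with a mean per group, filterByExpr with a minimum count of 10, TMM factors, the bias-adjusted quasi-likelihood test (two-sided) and Benjamini-Hochberg adjustment over 13796 genes at FDR 0.05. DESeq2 (version 1.42.0) was an alternative. The genes, lists and tests were chosen with earlier results of these data known. Named genes were those called, 12 set genes, and the 3 of lowest p-value in a comparison with fewer than 3 called. The 9 comparisons share libraries.

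Libraries of 1 genotype with the same number were read as 1 mouse. Deviations from group means correlated at 0.303 in WT and 0.421 to 0.445 in KO, and at −0.0114 to 0.114 across genotypes. The chromosome Y and *Xist* reads of the WT libraries pair in the same way. The block for the mouse was given beside results it changed. Replicates differed by more than sampling noise (chi-square of 7.27 to 21 per gene), so none was a duplicate. The smallest p of an exact permutation test of 2 against 2 libraries is 0.333, and it was not run. In simulated data of 13529 genes, 200 were changed between WT FoxP3+CD25+ and FoxP3-CD25- cells. Of these, 51% of 2-fold and 86% of 4-fold changes were called, and 14 of the 151 calls were false. Changes under 2-fold were not simulated, and the simulated libraries had no mouse in common, so power at smaller changes is not known. Alternatives were other filters, factors, tests, blocks and sets of libraries. RPKM used the summed exon length of GENCODE M21.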

Additional observations from a re-analysis of the deposited data

Results flagged for a closer look

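The difference of the FoxP3+CD25+ against FoxP3-CD25- contrast between KO and WT mice was singled out for *Scd2*. With the block for the mouse it was −0.75 (log2, SE 0.14, edgeR FDR = 0.0351), higher in FoxP3+CD25+ cells in 2 of 2 WT mice (ratios 1.67 and 1.31) and lower in 2 of 2 KO mice (0.819 and 0.933). Without the block it was −0.74 (edgeR FDR = 0.717) and did not pass. *Mki67*, a marker of cycling cells, was called lower in the same difference with the block, and its part was not tested. The Treg marker *Ikzf2* was called lower there as well, and *Satb1* higher.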

How the results depend on the processing

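The number of the list's genes called depended on the fit. In WT FoxP3+CD25+ against FoxP3-CD25- cells, 1 gene was called, 0 with edgeR's legacy fit (*Scd2* FDR = 0.0503), 2 with the replicate block by number, 4 with the block by mouse and 0 to 3 with a library left out. In the same contrast of KO cells 0 became 1 with the block by mouse or only the libraries compared, and was 0 to 1 with a library left out. KO FoxP3+CD25- against KO FoxP3-CD25- cells went from 0 to 1 without a filter on low counts, by DESeq2 and with either block. Against KO FoxP3+CD25+ cells it went from 0 to 1 with the block by number and 3 by mouse. KO against WT FoxP3-CD25- cells went from 0 to 1 without a filter, by DESeq2, with the block by number and with only the libraries compared. KO FoxP3+CD25- against WT FoxP3+CD25+ cells went from 0 to 2 with the block by number, and 0 to 2 with a library left out. The difference of contrasts went from 0 to 1 with the block by mouse. The cause was not tested. The labels do not say what libraries of a number share between genotypes, and the block by mouse cannot be fitted between genotypes.

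Of single genes, *Scd2* in KO against WT FoxP3+CD25+ cells was near 0 and changed sign, to 0.0025 with a filter of CPM above 1 and 0.0047 with only the libraries compared, and ranged from −0.1895 to 0.1512 with a library left out (0.0632 without both libraries of WT replicate 1). With a library left out, *Mvd* in that comparison ranged from −0.5273 to 0.0586, and *Scd2* in KO FoxP3+CD25- against WT FoxP3-CD25- cells from −0.1165 to 0.2885 (−0.007 without that pair). Among the other pathway genes, a fit of only the libraries compared ended the calls of *Npc2* (FDR = 0.0844) and *Acss2* (0.0890) in WT cells and of *Lbr* (0.118) in KO FoxP3+CD25- against WT FoxP3+CD25+ cells, and the CPM filter that of *Acss2* (0.0507) in KO FoxP3+CD25- against KO FoxP3+CD25+ cells. Of the alternatives for named genes, 660 kept direction and side of the threshold, 24 gained and 46 lost the threshold and 13 changed sign. A group left with 1 library is assumed to vary like the other groups.

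Counts over all genes moved as well. KO against WT FoxP3-CD25- cells had 20 called genes, but 91 without a filter, 111 by DESeq2, 108 with the block by number, 66 with only the libraries compared and 0 to 50 with a library left out. KO FoxP3+CD25- against WT FoxP3-CD25- cells had 106, but 238 without a filter and 217 by DESeq2 or the block by number, and against WT FoxP3+CD25+ cells 1548, but 926 with only the libraries compared. The difference of contrasts had 0, but 148 with the block by mouse and 25 by DESeq2. With the block by mouse the counts within a genotype were 2634, 1649, 786 and 2090, against 1504, 874, 230 and 967. Depth limits *Fdps*, *Idi1* and *Scd1* most.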
